A study of Arabidopsis thaliana with 8 samples.

Results

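The genes described here encode splicing factors and the proteins of small nuclear ribonucleoproteins (snRNPs) in Arabidopsis thaliana. They are 95 of 27444 nuclear protein-coding genes of the TAIR10 annotation. A gene was taken when its product text held "splicing factor", "small nuclear ribonucleoprotein", "spliceosom" or "pre-mRNA", and left out when that text also named CCCH or heat shock. Other genes with "RNA-binding" in the text were left out unless they were also called a splicing factor. The text rule is broad, so it also brought in 5 genes of the pre-mRNA cleavage complex and 1 chloroplast splicing factor, CRS1.

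Splicing removes introns from precursor messenger RNA. It is carried out by the spliceosome, which is built from snRNPs. Each snRNP holds a small nuclear RNA, a ring of Sm or Sm-like (LSm) proteins and proteins of its own. SR proteins, named for their arginine and serine repeats, and the U2AF and SF3 factors help to choose splice sites, and the Prp proteins drive the rearrangements of the spliceosome. N6-methyladenosine (m6A) is a methyl mark on messenger RNA, written in plants by a complex that includes MTA, and it is found mostly in 3′ untranslated regions (3′ UTRs).

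A pair of genotypes, both in the Col-0 ecotype, was compared by miCLIP-seq, in which an antibody against m6A is crosslinked to RNA with ultraviolet light and the bound RNA is sequenced. The first is ABI3:MTA, written mta here, in which MTA is driven by the promoter of ABI3, a gene active mainly in embryos. The second is wild type (WT). In both, RNA came from leaves 5 to 9 of soil-grown plants of 4 weeks, kept at 22 °C under days of 16 h light and 8 h dark, and was sampled 4 h into the light. The amount of poly(A)+ RNA per replicate was 7 µg. The labels do not give the MTA allele or the number of lines behind the mta genotype, nor do they tie replicates to different plants. The p-values below therefore refer only to these libraries, whose spread may be technical. With 2 libraries against 2, p cannot fall below 0.333, however small that spread is.

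The authors' peak lists held 1934 and 2092 peaks in mta replicates 1 and 2, and 8973 and 6584 peaks in WT replicates 1 and 2. These lists give each peak a position, a strand and a whole-number score whose scale no source states. Scores ran from 13 to 137 and from 20 to 203 in mta replicates 1 and 2, and from 13 to 161 and from 13 to 58 in WT replicates 1 and 2, so a score ranks peaks only within its own list. Read depth is unknown, and yield can be judged from the peak numbers alone. Where a gene lacks a peak, no peak on its strand had a midpoint in exons of that gene alone. A called peak could thus be left out, as for AT5G64010, described further on. Levels of RNA were not analysed here, and the peak lists do not hold them, so from these lists less methylation and less RNA cannot be told apart.

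The sequences below carry the comparison of the genotypes at single genes. Each holds the copy of RRACH nearest to the midpoint of a gene's highest-ranked peak, in capitals, with 10 bases on either side. RRACH, the textbook m6A consensus, is A or G, A or G, A, C, and then A, C or T. It was searched on the gene's strand only, in the TAIR10.1 genome from RefSeq, whose T stands for U in the RNA. A copy is a match of letters and not a mapped methylated base. The first sequences show genes whose nearest copy was the same under an mta and a WT peak, then genes where it differed, and last genes with peaks in both WT lists and in neither mta list. Where it differed, the copies nearest the mta peaks of EMB2816 and SCL30A also lay inside both WT peaks. That of LSM3B also lay inside the peak of WT replicate 2, but outside that of WT replicate 1.
AT2G18740 under mta and WT peaks (chr2:8124877-8124901, plus strand): tggttggttaAAACTtcaaaaaaga
SNRNP-G under mta and WT peaks (chr2:10183158-10183182, plus strand): agattgcaatGAACCcccaccgatg
AT4G02840 at mta and WT peaks (chr4:1266335-1266359, plus strand): ggtgtcactaAGACAaattcttgtt
LSM3B under the mta peak (chr1:28854575-28854599, minus strand): gcctgagttcAAACTcaaatctttt
LSM3B under the WT peak (chr1:28854495-28854519, minus strand): gtcttaactaAAACAagcttgaaga
EMB2816 under the mta peak (chr2:1181247-1181271, plus strand): ggctgtctaaAGACTttcttctcaa
EMB2816 under the WT peak (chr2:1181335-1181359, plus strand): gtgatgttggAAACAtatatgttca
SCL30A under the mta peak (chr3:4429391-4429415, minus strand): gatgatcttgAGACAgtattttgaa
SCL30A under the WT peak (chr3:4429451-4429475, minus strand): ttccctacttAGACAgatatttgta
SAD1 under the WT peak (chr5:19814453-19814477, plus strand): agttgattttAAACTcagaatgaca
ATU2AF65A under the WT peak (chr4:17294068-17294092, minus strand): ttcagtttcaAGACCcttttgcgtg
U1-70K under the WT peak (chr3:18826433-18826457, minus strand): aaaactctaaAAACTtaagaatcct
AT3G05070 under the WT peak (chr3:1417610-1417634, plus strand): cgaagtgagtAGACCatgtaaaatc

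Far fewer of these genes had a peak in mta leaves. A peak was called on 12 and 9 of the 95 genes in mta replicates 1 and 2 (12.6% and 9.47%), against 59 and 48 in WT replicates 1 and 2 (62.1% and 50.5%). Over all coding genes the shares were 5.62% and 6.01% in mta, and 27.1% and 20.3% in WT. Both genotypes therefore had a larger share of splicing and snRNP genes with a peak than of coding genes at large. The mean was 10.5 ± 2.12 genes in mta and 53.5 ± 7.78 in WT (SD, n = 2 each). WT had 5.10 times as many, beside 4.08 times as many over all coding genes. With every list shortened to the length of the shortest, the means were 10 genes in mta and 21 in WT. The genotypes did not overlap, and the exact two-sided permutation test gave p = 0.333, the smallest p that 2 libraries against 2 allow.

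The peaks themselves numbered 13 and 10 in mta replicates 1 and 2, and 77 and 55 in WT replicates 1 and 2. They made up 0.745% and 0.548% of the peaks on coding genes in the mta lists, and 0.882% and 0.859% in the WT lists. The mean share was 0.646 ± 0.140% in mta and 0.871 ± 0.0161% in WT (SD, n = 2 each), with an exact permutation p of 0.333. Both WT libraries gave these genes a larger part of their peaks than either mta library, though the mta shares rest on 13 and 10 peaks. Among 3′ UTR peaks alone the order was the other way. There these genes had 11 of 917 and 8 of 801 peaks in mta replicates 1 and 2. In WT replicates 1 and 2 they had 65 of 7743 and 50 of 5633. The order among 3′ UTR peaks was not tested.

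In mta, 7 of the 95 genes had a peak in both lists (7.37%, against 3.05% of all coding genes) and 14 in either list (14.7%, against 8.58%). In WT, 47 had a peak in both lists (49.5%, against 18.9%). Of those 47, 35 had no peak in either mta list (74.5%), which is close to the 74.1% of all coding genes with a peak in both WT lists. Another 6 of the 47 had a peak in all 4 lists (12.8%, against 10.2%), and the remaining 6 had a peak in 1 mta list. Only AT5G43620 was in both mta lists and neither WT list, as were 0.67% of coding genes. A further 12 genes had a WT peak in replicate 1 alone, and AT3G24730, a thioredoxin-like U5 snRNP gene, had one in replicate 2 alone. Altogether 62 genes had a peak in some list (65.3%, against 30.9%), and 33 had none, AT5G64010 among them.

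**Figure D1:**
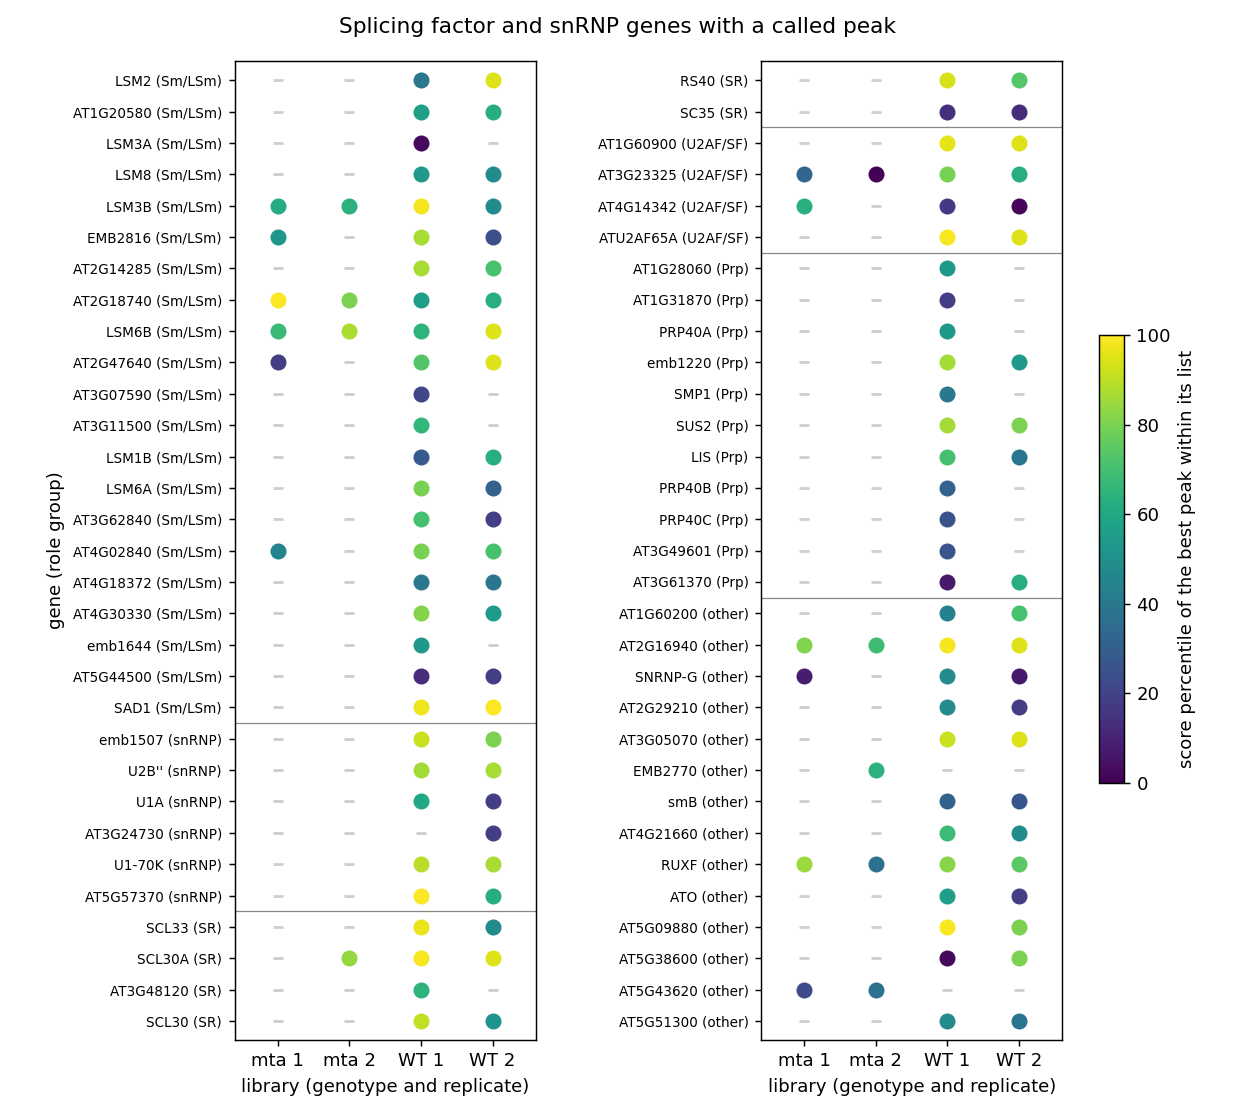
The 62 splicing factor and snRNP genes with a called peak, by role group (rows) and library (columns, mta then WT). Point colour is the percentile, within its own list, of the score of the gene's best peak, and a grey dash marks no peak. The mta columns hold 12 and 9 points and the WT columns 59 and 48.

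Sm and LSm genes had peaks in WT almost throughout. The Sm proteins form the ring on most spliceosomal RNAs. LSm rings bind the U6 RNA in the nucleus, and a related ring acts in mRNA decay in the cytoplasm. Of 22 genes annotated as the small nuclear ribonucleoprotein family, mta replicates 1 and 2 had peaks on 6 and 3, and WT replicates 1 and 2 on 21 and 17. Over all coding genes the shares with a peak were 5.62% and 6.01% in mta, and 27.1% and 20.3% in WT. Of the 17 family genes in both WT lists, 11 had no mta peak, where 74.1% of all coding genes in both WT lists had none. LSM1A was the only gene of the family with no peak in any list, while LSM1B, the other LSM1 gene, had WT scores of 36 and 35.

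LSM3B had the most mta peaks of any gene described here, 2 in each replicate. Near the stop codon, its mta peaks scored 17 and 58 and were centred 15 nt past the stop in both replicates (chr1:28854516-28854643 and chr1:28854516-28854642). A second pair, scoring 38 and 53, lay in the coding sequence (CDS), at -209 and -206 nt, where negative values lie before the end of the stop codon. Its WT peaks scored 135 and 29 and were centred 109 and 75 nt past the stop (chr1:28854415-28854556 and chr1:28854422-28854617). The CDS pair was met by no WT peak. LSM3A, its paralog, had no mta peak and a single WT peak with a score of 15 in replicate 1.

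LSM6B had a peak in all 4 lists, but not at a single place, and the highest score of these genes in mta replicate 2. Its mta peaks scored 41 in replicate 1 and 77 in replicate 2, and were centred 102 and 225 nt past the stop. In WT replicate 1, peaks centred at 115 and 225 nt scored 20 and 64, and in WT replicate 2 a single wider peak at 169 nt scored 50. The mta replicates thus shared the gene and not the place, and the WT peaks covered both places. Its paralog LSM6A had no mta peak and WT scores of 84 and 26.

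AT2G18740, a family gene with no further name in the annotation, had the highest score of these genes in mta replicate 1. It scored 87 and 69 in mta replicates 1 and 2, centred 173 and 171 nt past the stop (chr2:8124856-8124911 and chr2:8124855-8124908). In WT it scored 56 and 35, centred at 207 and 215 nt (chr2:8124845-8124989 and chr2:8124850-8125000). The narrow mta peaks lay inside the wider WT ones, at the 5′ side, and the AAACT copy shown above lay inside all 4 peaks.

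The other family genes with an mta peak had it in replicate 1 alone. EMB2816, also named LSM7, scored 35 in mta at 3 nt past the stop, and 99 and 23 in WT at 67 and 62 nt. AT2G47640 scored 22 in mta at 31 nt, and in WT it scored 75 at 40 nt and 50 at 55 nt. AT4G02840 scored 31 in mta at 58 nt, and 84 and 36 in WT at 84 and 108 nt. In each of these the mta peak overlapped the WT peaks and was centred nearer to the stop codon.

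SAD1, also named LSM5 and known for its part in abscisic acid and drought responses, ranked first of all these genes in WT. It had no mta peak. Its WT peaks scored 134 and 58, and 58 was also the highest score in the list of WT replicate 2. They lay 103 and 84 nt past the stop (chr5:19814390-19814541 and chr5:19814370-19814522). AT2G14285, with WT scores of 99 and 36, was another family gene with high WT scores and no mta peak.

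The product text puts the genes of SmB, SmF and SmG in other groups, although their proteins belong to the Sm ring. RUXF, which encodes SmF, had a peak in all 4 lists. It scored 52 and 47 in mta, at 23 and 30 nt past the stop (chr4:14803042-14803113 and chr4:14803042-14803099), and 88 and 40 in WT, at 67 and 64 nt. SNRNP-G scored 17 in mta replicate 1 at 142 nt, and 49 and 18 in WT at 128 and 155 nt. The gene smB had no mta peak and scored 37 and 24 in WT. With these 3 genes added, a grouping made after the counts were seen, 8 and 4 of 25 Sm and LSm genes had a peak in mta, and 24 and 20 in WT. The other 70 genes had 4 and 5 with a peak in mta, and 35 and 28 in WT. Beside these stand 5.62% and 6.01% of all coding genes in mta, and 27.1% and 20.3% in WT. With lists shortened to the shortest, 8 of the 25 had a peak in an mta list and 3 in both WT lists, against 6 and 11 of the other 70. No test of this difference between groups was made. Sm and LSm transcripts were also shorter, with a median of 748 nt against 1779 nt for the other 70, and the part of length in the counts was not tested.

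**Figure D2:**
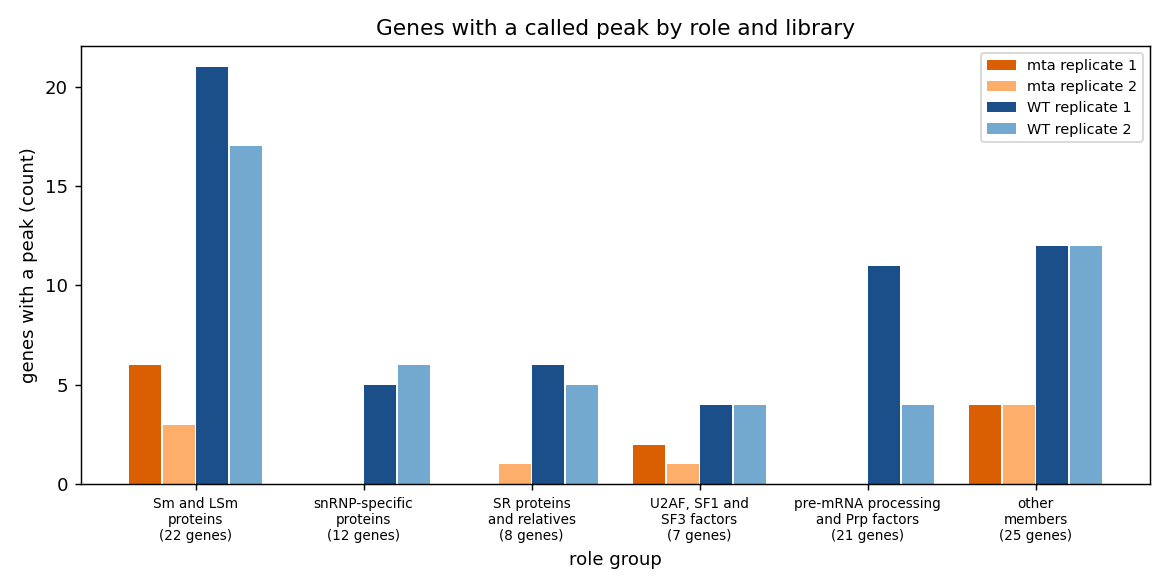
Number of genes with a called peak (vertical axis, count) in each role group, with mta libraries in orange left of WT libraries in blue. Sm and LSm genes had the tallest bars in each genotype for named roles, and the snRNP-specific and Prp groups had no mta bar.

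The snRNP-specific group held 12 genes whose product text names 1 snRNP, such as U1, or more than 1, such as U4/U6.U5. Of these, 5 and 6 had a peak in WT replicates 1 and 2, and 5 in both, where 18.9% of all coding genes were. None had a peak in mta, which in so few genes is near the 8.58% of all coding genes with a peak in either mta list. U1-70K, which helps the U1 snRNP to recognise the 5′ splice site, scored 102 and 43 in WT at 46 and 47 nt past the stop (chr3:18826351-18826509 and chr3:18826353-18826505). U2B″, listed as U2B'' and an RNA-binding protein of the U2 snRNP, scored 96 and 43 in WT at 68 and 72 nt. U1A scored 61 and 21. The U4/U6.U5 gene AT5G57370 had the highest score of these genes in WT replicate 1, 152, at 186 nt, and scored 35 in replicate 2 at 185 nt. Both WT lists placed the peaks of U1-70K and U2B'' and the best peak of AT5G57370 at nearly the same base. AT5G57370 had a further peak in WT replicate 1 alone, scoring 49 at 62 nt.

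Paralogs of U5 and other snRNP genes differed in whether a peak was called. Of 3 genes for a U5 snRNP helicase, emb1507 scored 109 and 42 in WT at 240 and 231 nt past the stop, and AT2G42270 and AT5G61140 had no peak in any list. U2A′, YLS8 and both U11/U12 genes, AT2G46200 and AT3G04160, which belong to the minor spliceosome, also had none. These genes were picked after their values were seen. Whether their RNA was present in these leaves was not analysed here.

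Of 8 SR genes taken by the text rule, 1 had a peak in mta, in replicate 2. Among all coding genes, 8.58% had one in either mta list. In WT, 6 and 5 of the 8 had one, where 27.1% and 20.3% of all coding genes did. The gene with an mta peak was SCL30A, an SC35-like splicing factor. It scored 73 in mta replicate 2, at 160 nt past the stop (chr3:4429378-4429430), and 144 and 50 in WT at 118 and 116 nt (chr3:4429368-4429524 and chr3:4429370-4429526). Its mta peak lay inside the 3′ part of the WT peaks. RS40 scored 116 and 39 in WT at 108 and 105 nt and had no mta peak. SCL33 and SCL30 also had WT peaks alone, with best scores of 126 and 29 for SCL33 and of 106 and 30 for SCL30. SCL28 had no peak in any list. These 8 are not the whole SR family, since the text rule left out other SR genes, described further on from a list of symbols. Of those, SR30, SR34, SR34a, RSZ22 and RSZ22a had an mta peak, and the rest had none.

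Of 7 genes of the U2AF and SF3 group, 2 and 1 had a peak in mta and 4 in each WT list. The shares of all coding genes were 5.62% and 6.01% in mta, and 27.1% and 20.3% in WT. U2AF binds the 3′ end of introns, and SF3B is part of the U2 snRNP. Both genes for SF3B subunit 5 had a peak in both WT lists and in mta. AT3G23325 scored 28 and 22 in mta at 12 and 37 nt past the stop, while in WT it scored 84 at 159 nt in replicate 1, and 35 at both 32 and 160 nt in replicate 2. Its mta peaks thus matched only the nearer of the WT places, which was called in 1 of the WT replicates. AT4G14342 scored 39 in mta replicate 1 at 474 nt, and 28 and 14 in WT at 493 and 482 nt, the farthest past the stop codon of the 3′ UTR peaks on genes with an mta peak.

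Both genes for the U2AF large subunit had high-ranking WT peaks and no mta peak. ATU2AF65A scored 144 and 50 in WT, at 83 and 80 nt past the stop (chr4:17294006-17294107 and chr4:17294013-17294105). AT1G60900 scored 125 and 50 in WT, at 134 and 140 nt. Each also had a weaker WT peak in the CDS in replicate 1 alone, with scores of 16 and 29. The auxiliary factor-like gene AT5G64010 shares an exon stretch with AT5G09175 on the same strand, and a peak there, scoring 85 and 29 in WT, was assigned to neither.

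Of 21 Prp and pre-mRNA processing genes, none had a peak in mta, where 8.58% of all coding genes had one in either list. In WT replicates 1 and 2, 11 and 4 had a peak, and the 4 were in both lists, a share near the 18.9% of all coding genes. This was the group in which the WT replicates differed most. SUS2, also named PRP8, the large protein at the centre of the spliceosome, scored 97 and 42 in WT at 116 and 85 nt past the stop. The gene emb1220 scored 97 and 32 in WT, at 112 and 111 nt. LIS, a Prp4-like gene, scored 70 and 28. PRP40A, PRP40B and PRP40C each had a peak in WT replicate 1 alone, with scores of 55, 37 and 34, as had AT1G31870, whose best score was 30. AT4G38780, a gene for a pre-mRNA-processing-splicing factor-like protein, had no peak.

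Among the 25 genes with other product texts, 4 in each mta list had a peak, and 12 in each WT list. All coding genes had shares of 5.62% and 6.01% in mta, and of 27.1% and 20.3% in WT. CC1-like factors are relatives of the U2AF large subunit. AT2G16940, a CC1-like gene, had a peak in all 4 lists, scoring 48 and 61 in mta at 153 and 157 nt past the stop (chr2:7342684-7342748 and chr2:7342683-7342742). In WT it scored 139 and 50 at 177 and 151 nt (chr2:7342602-7342782 and chr2:7342611-7342826), and WT replicate 1 had a further peak at 31 nt with a score of 26. Its mta peaks lay within the main WT peaks. The other CC1-like gene, AT5G09880, scored 144 and 42 in WT at 104 and 106 nt and had no mta peak.

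AT3G05070, a Cwf18 gene, scored 110 and 50 in WT, centred 88 nt past the stop in both lists, and had no mta peak. AT4G21660, of the proline-rich spliceosome-associated family, had the most separate WT regions of these genes, 4, with best scores of 69 and 29 in WT replicates 1 and 2 and none in mta. AT2G29210, a PWI domain gene, had 3 WT regions. In all, 15 genes had more than 1 WT region and 45 had 1, where peaks of both WT lists that overlapped were merged. The same counts over all coding genes are not given, so whether 15 is unusual cannot be told.

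Peaks in mta without a WT counterpart were few. EMB2770, also named STA1, a Prp6-like splicing factor, scored 58 in mta replicate 2, at 178 nt past the stop (chr4:1517209-1517258), and had no other peak. AT5G43620 scored 24 and 47 in mta replicates 1 and 2 and had no WT peak. Its mta peaks lay deep in the CDS, at -1137 and -1138 nt from the end of the stop codon (chr5:17522723-17522774 and chr5:17522719-17522776). It is a cleavage complex gene and not a splicing factor, and the other 4 cleavage complex genes had no peak.

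**Figure D3:**
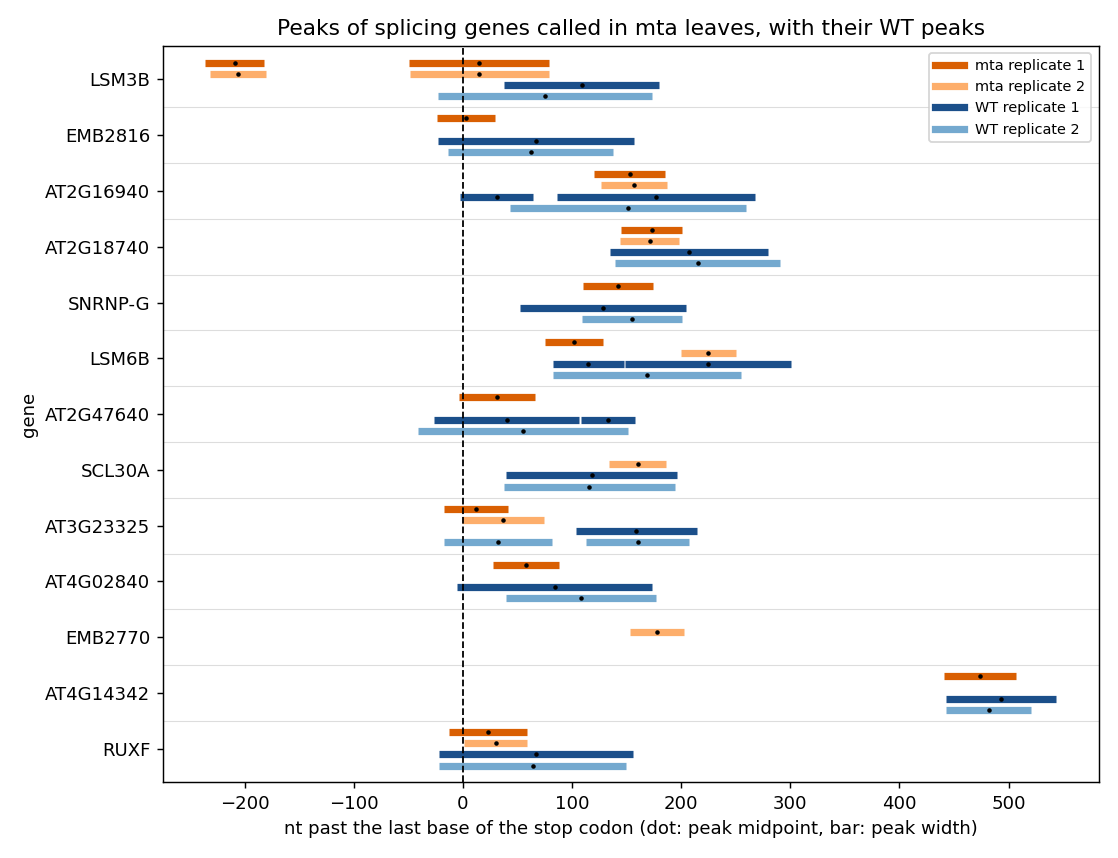
Peaks of 13 of the 14 splicing and snRNP genes with an mta peak, by distance in nt from the last base of the stop codon (dashed line). Bars show the peak's width in the genome around its midpoint (dot), for mta replicates in orange above WT replicates in blue. The mta bars are mostly shorter, and many lie within a WT bar. AT5G43620, whose peaks lie far upstream in the CDS, is not drawn.

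Where these genes had peaks in both genotypes, the peaks met. All 12 genes in both WT lists and an mta list had a best mta peak overlapping a best WT peak in at least 1 pair of libraries. In 7 of the 12 the best mta peak was centred 5′ of the best WT peaks in every pair of libraries, and in 1, SCL30A, it was centred 3′ of them. Taken peak by peak, 76.9% and 84.6% of the 13 peaks in mta replicate 1 overlapped a peak of WT replicates 1 and 2, and 60% and 70% of the 10 peaks in mta replicate 2 did. Over all coding genes these shares were 44.9% and 39.6% for mta replicate 1, and 35.3% and 32.1% for mta replicate 2. The mta peaks of these genes thus overlapped WT peaks more often than mta peaks at large, and the difference was not tested.

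The replicates of each genotype were also compared with each other. Of the peaks on these genes in mta replicate 1, 53.8% were met in mta replicate 2 (48.7% over all coding genes), and 70% the other way (46.5%). In WT, 66.2% of the peaks in replicate 1 were met in replicate 2 (63.6%), and 92.7% the other way (87.9%). Of the 48 WT regions called in both lists on these genes, 37 were met by no mta peak (77.1%, against 85.1% of 5391 over all coding genes). Of 7 mta regions called in both lists, 5 were met by a WT peak, against 54.1% of 845 over all coding genes.

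Peaks on these genes lay mostly in the 3′ UTR in both genotypes. In mta, 11 of 13 and 8 of 10 placed peaks did so (84.6% and 80%), and in WT 65 of 74 and 50 of 53 (87.8% and 94.3%). The mean share was 82.3 ± 3.26% in mta and 91.1 ± 4.60% in WT (SD, n = 2 each), and the exact permutation p was again 0.333. Over all coding genes the mean was 49.1 ± 6.33% in mta and 91.1 ± 0.516% in WT. The WT means were the same to 3 digits, while the mta shares were 84.6% and 80% for these genes and 53.5% and 44.6% for all coding genes. That gap was not tested, and the mta shares rest on 13 and 10 peaks. Over the 83 genes that did not enter by "pre-mRNA" alone, the means were 90.3% in mta and 91.3% in WT. Of the 14 genes with an mta peak, 13 had one in the 3′ UTR and 2 had one in the CDS, against 49.9% and 53.1% of 2356 coding genes with an mta peak.

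CDS peaks on these genes numbered 2 and 2 in mta replicates 1 and 2, and 9 and 3 in WT replicates 1 and 2. With lists shortened to the shortest, the means were 2 in mta and 0.5 in WT, which turns the direction. The mta ones were those of LSM3B and AT5G43620. Over all coding genes, CDS peaks numbered 755 and 935 in mta replicates 1 and 2, and 696 and 548 in WT replicates 1 and 2. That is the other direction from the full lists of the splicing and snRNP genes. In WT, the best peak of 43 of the 47 genes in both lists lay in the 3′ UTR. It lay in the CDS for AT1G60200 and AT5G38600, and outside the transcript used for placing peaks for AT3G61370 and AT5G44500. No peak lay in an intron of these genes or antisense to them in any list.

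**Figure D4:**
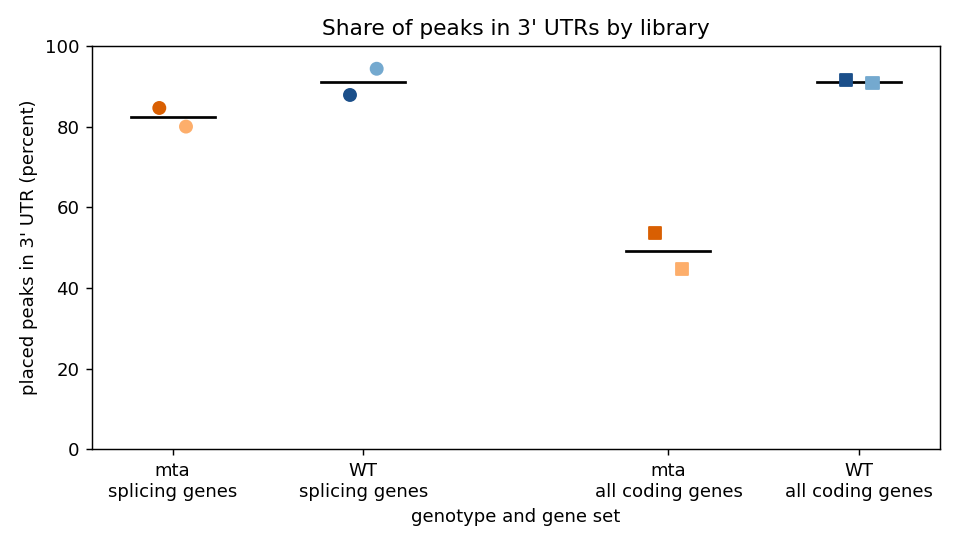
Percent of placed peaks with a midpoint in the 3′ UTR (vertical axis) for splicing and snRNP genes (circles) and all coding genes (squares), with mta left of WT. Points are libraries and lines are means of 2. Splicing genes in mta sit at 84.6% and 80%, against 53.5% and 44.6% for all coding genes in mta.

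Within the 3′ UTR, peaks on these genes were centred a median of 58 and 158.5 nt past the stop in mta replicates 1 and 2, over ranges of 3 to 474 and 15 to 225 nt. In WT the median was 118 nt in both replicates, over ranges of 16 to 915 and 15 to 922 nt. All coding genes had WT medians of 119 and 118 nt. The mta medians lay on either side of the 115 nt found for all coding genes in each mta list, and rest on 11 and 8 peaks.

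**Figure D5:**
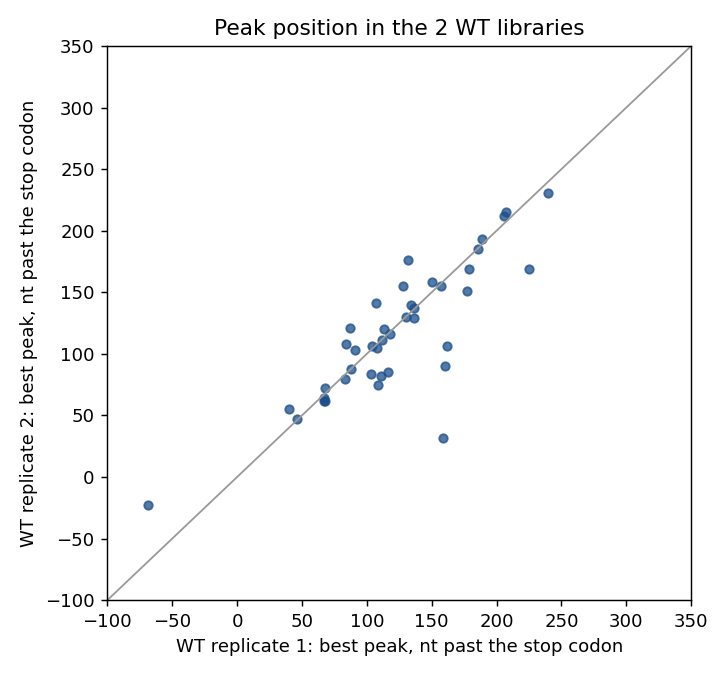
Position of the best peak in WT replicate 1 (horizontal axis) and WT replicate 2 (vertical axis), in nt past the stop codon, for 41 splicing and snRNP genes, 1 point each. A further 4 genes fall outside the axes, among them AT1G60200, with the largest difference (1709 nt). Most points lie near the line of equality, with a median difference of 8 nt between midpoints over the genes in both lists.

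The WT lists agreed closely on place for most of these genes. Between the midpoints of the best peaks in both WT lists the median difference was 8 nt in the genome, and for 32 of 47 genes it was within 25 nt. The largest was 1709 nt, in AT1G60200. Its best peak lay in the 3′ UTR in WT replicate 1 and in the CDS in WT replicate 2. Median peak width on these genes was 61 and 56 bp in mta, against 96 and 97 bp in WT. The means were 58.5 ± 3.54 bp in mta and 96.5 ± 0.707 bp in WT (SD, n = 2 each), without overlap (exact permutation p = 0.333). With lists shortened to the shortest, the mean medians were 57.5 bp in mta and 151.5 bp in WT. All coding genes had medians of 56 and 54 bp in mta, and 88 and 83 bp in WT.

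An RRACH copy lay within 50 nt of the midpoint for 12 of 13 and 8 of 10 placed peaks in mta (92.3% and 80%), and for 62 of 74 and 44 of 53 in WT (83.8% and 83.0%). The means were 86.2 ± 8.70% in mta and 83.4 ± 0.541% in WT (SD, n = 2 each), and the genotypes overlapped (exact permutation p = 1). Without mta replicate 1 the mta share was 80%, below both WT shares. Among all coding genes the shares were 72.2% and 73.5% in mta, and 77.3% in each WT list. For comparison, 75.5% of 237 windows of 101 nt laid along the 3′ UTRs of these genes held RRACH, as did 68.2% of 53892 such windows over all coding genes. These windows were laid without regard to peaks and only in 3′ UTRs, while the shares of peaks above include CDS peaks. For 3′ UTR peaks alone, the shares over all coding genes were 70.1% and 69.9% in mta, and 77.0% and 77.3% in WT. For these genes they were 90.9% and 75% in mta (10 of 11 and 6 of 8), and 83.1% and 84% in WT.

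Among the 47 genes in both WT lists, the nearest RRACH copy lay inside the best WT peak in 43, and within 25 nt of its midpoint in 35. The median distance was 15 nt. The farthest was 178 nt, in LSM6B, whose best peaks in both genotypes held no copy. By letters, AAACT was the nearest copy in 12 genes and GAACT in 7, while AAACA and GAACA had 5 each. The same copy was nearest in both WT lists for 35 of the 47. Of the 12 genes with peaks in both genotypes, 6 had the same nearest copy in an mta and a WT list. AT2G18740, SNRNP-G and AT4G02840, shown above, were among them.

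The genes with an mta peak, most of them Sm and LSm genes, had short transcripts in the median. Their median length was 800.5 nt over 14 genes, against 1446 nt over the 35 genes in both WT lists and no mta list. The same split over all coding genes gave 1417.5 nt and 1714 nt. Of the 14 genes, 8 were Sm and LSm genes with SmB, SmF and SmG added, a group with a median of 748 nt. The other 6 had transcripts of 588, 1089, 1277, 1518, 2278 and 4446 nt. The part of group make-up in the difference was not tested. The 3′ UTRs of the 14 genes had a median of 297 nt, and those of the 35 genes 247 nt. The 33 genes with no peak in any list had transcripts of 1553 nt and 3′ UTRs of 211 nt in the median, and 6 of them had no annotated 3′ UTR.

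Other genes of the spliceosome or linked to splicing, such as the PTB genes, were set beside these, from a list of 97 symbols. Of those symbols, 25 named genes described above, 30 had no single match, and the rest named 39 further genes. Symbols with no single match included SUS2 and STA1, which each matched a gene described above and another gene. Of these 39, 10 had a peak in an mta list and 4 in both, against 8.58% and 3.05% of all coding genes. In both WT lists 25 of the 39 had a peak, against 18.9% of all coding genes, and 9 had none in any list. All 10 with an mta peak also had a peak in both WT lists. Their mta peaks lay in the 3′ UTR in 5 and in the CDS in the other 5, which is close to the 49.9% and 53.1% of all coding genes with an mta peak. The 3′ UTR ones were the SR genes SR30, SR34a, RSZ22 and RSZ22a, and MAC5A.

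The 5 with CDS peaks were SR34, MAC3A, MEE5, PTB2 and PTB3, and all had best WT peaks in the 3′ UTR. PTB3, a polypyrimidine tract-binding protein gene, scored 35 and 90 in mta at -903 and -904 nt from the end of the stop codon, and in WT its best peaks scored 101 and 47 at 212 and 66 nt past it. MEE5 scored 41 and 73 in mta, at -2911 and -2908 nt from the end of the stop codon, and its best WT peaks scored 84 and 42 at 114 and 149 nt past it. In both genes the mta and WT lists named different parts of the transcript.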

How the data were processed

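Peak lists of the 4 m6A-bound libraries (mta and WT, 2 each) were analysed; the supernatant libraries were not analysed here. Per the submitters' processing notes, the authors used STAR 2.4.0, MACS2 and TAIR10. The MACS2 version, control and threshold, and the treatment of reads that map to several genes, were not given in the sources used here, so peaks of close paralogs are uncertain. The deposited score of each peak is a whole number given by the authors; peaks were ranked by it inside their list and, as an alternative, filtered by it.

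A peak was given to a gene when its midpoint lay in a same-strand exon; 97.8% of 19528 nuclear peaks had such a midpoint. Midpoints in exons of several genes were left out. Positions used the coding transcript with the longest CDS in the RefSeq copy of TAIR10 (TAIR10.1), and peaks outside it were left out of location and motif shares. Lists were compared by overlap of at least 1 bp on the same strand. Tests between genotypes were exact two-sided permutations of the libraries (scipy 1.17.1, numpy 2.4.6, matplotlib 3.10.9, Python 3.11.15). The placement of peaks was tested on simulated data. Replicate numbers were not treated as pairs, since the labels tie them to no shared plants or day.

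Members, role groups and lists were chosen with earlier results of these data known. Genes named are the 15 highest-ranked in both WT lists, every one in both mta lists or in 1, those with the most separate WT regions, and the 2 highest-ranked of each role group. Others named, such as paralogs and genes without a peak, were chosen after their values were seen. Alternatives covered score, list length, assignment, member rule, gene model, motif, window and each replicate.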

Additional observations from a re-analysis of the deposited data

How the results depend on the processing

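Read depth is unknown, and the mta counts rest on 13 and 10 peaks. Fewer genes with a peak in mta than in WT was found under every alternative run, with differences of -48.5 to -37.5 genes when leaving out each replicate. Of the alternatives, 101 left the value the same, 5 moved it and 6 turned a sign. For differences, the same meant the same sign, since p could not fall below 0.333 and so decided nothing. For counts of genes it meant a change of at most 1.5-fold. For overlap between lists it meant a share inside the binomial interval of the main share. With only scores of at least 50, 5 of 8 genes in both WT lists had no mta peak and 1 gene was in both mta lists. With every list shortened to the shortest, 10 of 14 did, and CDS peaks were 1.5 more in mta (0 difference at scores of at least 50). Genes in both mta lists ranged from 7 to 12 when leaving out each replicate, with 12 without mta replicate 2, where replicate 1 alone decides. The difference in RRACH share, 2.75 percentage points, turned to -0.374 with shortened lists, -6.55 with a window of 100 nt, -5.08 with DRACH (A, G or T first), and -11.9 with URUAY, a motif added after the data were seen; it ranged from -3.40 without mta replicate 1 to 8.91 without mta replicate 2. The cause of these turns was not tested. The difference in 3′ UTR share was -1.04 points with the 83 genes that did not enter by "pre-mRNA" alone, and -16.0 with shortened lists, against -8.78 with all. It ranged from -12.0 without WT replicate 1 to -5.53 without WT replicate 2. The difference in the share of library peaks, -0.224 points, was -0.443 at scores of at least 50 and -0.471 with shortened lists, and ranged from -0.323 without mta replicate 1 to -0.126 without mta replicate 2.

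With a replicate block, which takes mta minus WT within each replicate number, the difference was -43 genes (exact sign-flip p = 0.5, the smallest possible). The numbers mark no known pairing, and the deviations of same-numbered libraries correlated at 0.0114 over 27444 genes.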
